A study of Homo sapiens with 2 samples.

Results

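The nuclear-encoded subunits of the mitochondrial respiratory chain and ATP synthase were examined in REH and 697 cells, established lines from B-cell precursor acute lymphoblastic leukemia. Members were the autosomal protein-coding genes whose symbols start with NDUFA, NDUFB, NDUFC, NDUFS or NDUFV (complex I), UQCR (complex III), COX4 to COX8 (complex IV) or ATP5 (ATP synthase), together with SDHA, SDHB, SDHC and SDHD (complex II). The NDUFAF assembly factors were left out. The rule gave 87 of the 57773 genes counted, and 79 of them had at least 10 reads in at least 1 library.

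REH is positive for ETV6/RUNX1 and no longer has an intact ETV6 allele, whereas 697 lacks that fusion. Both lines were grown in the same serum-supplemented medium without any treatment, and total RNA was sequenced once per line. With 1 library per line no difference between the lines could be tested, so every ratio below compares these libraries only. Each line is also a single model of its leukemia subtype, so fusion status cannot be told apart from any other difference between the lines.

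The REH library held 63954817 reads, of which 45188375 fell in genes, and the 697 library held 58948890 and 41097497. Multimapping reads amounted to 10.8% of the library in REH and 15.4% in 697, and genes of the mitochondrial genome took 3.11% and 6.13% of the gene reads. B-precursor markers were detected in both libraries, with 32911 CD79A reads in REH and 10614 in 697, and 39793 and 45212 PAX5 reads. The pre-B cell marker VPREB1 had 3 reads in REH and 10039 in 697. Of the T-cell markers, CD3D and CD2 had 0 reads in both, CD3G had 2 in REH and 1 in 697, and CD3E had 45 and 0. The erythroid gene HBB had 0 in both. Of the myeloid markers, MPO had 12643 reads in REH and 12 in 697, CD14 had 29 and 8, CSF1R had 30 and 61, and LYZ had 1 and 2. Their part in the results below was not tested. ETV6 had 1334 reads in REH and 3401 in 697.

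The respiratory chain passes electrons from NADH and succinate to oxygen. Complex I takes electrons from NADH and complex II from succinate, complex III passes them from ubiquinol to cytochrome c, and complex IV hands them to oxygen. The protons pumped on the way drive ATP synthase, a rotary enzyme with a catalytic F1 head and a ring of c subunits in the membrane. The mitochondrial genome encodes a small set of core subunits, and all others, including every subunit of complex II, are made from nuclear genes in the cytosol and imported. Lymphoid blasts use this pathway alongside glycolysis.

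As a group, the subunit genes had somewhat lower levels in REH than in 697 and a narrow spread. Members took 311845 reads in REH and 321567 in 697, which was 0.690% and 0.782% of the gene reads. In CPM, the read count normalized to library size after TMM scaling (trimmed mean of M-values), their summed level was 6204 in REH and 8704 in 697. In RNA from whole cultures, fewer expressing cells and less RNA per cell cannot be told apart. The median log2 ratio of REH over 697 was -0.32 over the 79 members, with quartiles of -0.63 and -0.02, against a median of 0.05 over all 19145 genes tested. Of the 79 members, 64 lay below that median of all genes. Without TMM scaling the median of all genes moved to 0.36 and that of the members to -0.0089. A sign close to 0 thus depends on the scaling. The gap of -0.37 between members and all genes cannot, because scaling shifts every log2 ratio alike. That gap was smaller at like depth. The median was -0.34 over the 72 members with 1000 or more reads in all. Over the 8815 protein-coding autosomal genes at that depth it was -0.07.

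Few members differed by 2-fold or more. Past a log2 ratio of 1 in either direction were 2 members higher in REH (2.53% of those tested) and 6 higher in 697 (7.59%). The same threshold was passed by 22.4% of all genes tested in the direction of REH and by 17.4% in the direction of 697. At a log2 threshold of 2, 1 member was left in each direction, beside 12.5% and 8.15% of all genes. Most members are abundant. Of the 72 members with 1000 or more reads in all, 0 passed it in the direction of REH and 5 in that of 697 (6.94%), while of the 8815 protein-coding autosomal genes at that depth 10.2% and 12.6% did. The standard deviation of the log2 ratio was 0.786 over all 79 members and 2.02 over those 8815 genes, whose ratios ran from -14.9 to 13.4. The quartiles, which extreme genes move less, were closer. They were -0.64 and -0.06 over the 72 members and -0.56 and 0.42 over those 8815 genes. For 66 members the 95% counting interval of the ratio excluded 0, with 53 below and 13 above. The share of all genes with such an interval was not computed. Intervals narrow as counts grow, so these numbers describe the members only. Such intervals, here exact Clopper-Pearson intervals, cover counting error only and not the variation between cultures or libraries.

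**Figure D1:**
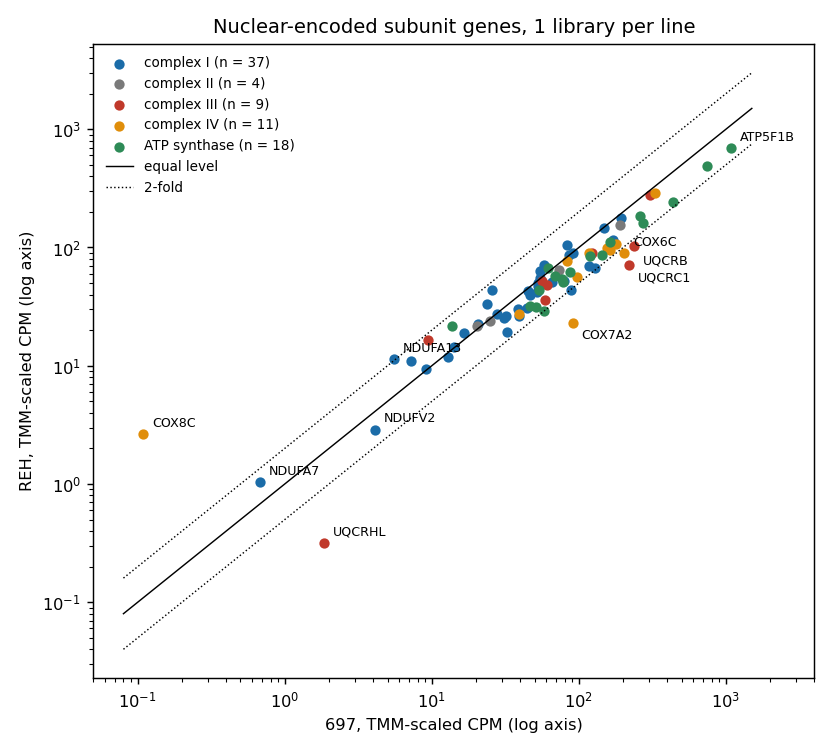
Scatter plot of the level of each of the 79 subunit genes in 697 (x axis) and REH (y axis), in TMM-scaled CPM on log axes, coloured by complex, with a solid line of equal level and dotted lines of 2-fold difference. Most points lie between the solid line and the lower dotted line, while COX8C lies far above the upper line and COX7A2, UQCRC1 and UQCRHL lie well below the lower line.

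The complexes differed in where their members lay. Complex I, the NADH dehydrogenase, had a median log2 ratio of -0.08 over 37 genes (range -1.01 to 1.05), and complex II of -0.13 over 4 genes (-0.29 to 0.09). Complex III had a median of -0.45 over 9 genes (-2.50 to 0.81), complex IV of -0.64 over 11 genes (-1.97 to 4.45) and ATP synthase of -0.55 over 18 genes (-0.995 to 0.67). The ranges of complex I and ATP synthase, the largest groups, overlapped. Of the complex I genes 30 of 37 lay above the ATP synthase median, and of the ATP synthase genes 16 of 18 lay below the complex I median, with medians 0.47 apart. These counts are descriptions, since genes of 1 complex are not replicates. Without TMM scaling the complex I median turned positive (0.23) and the ATP synthase median stayed negative (-0.24).

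**Figure D2:**
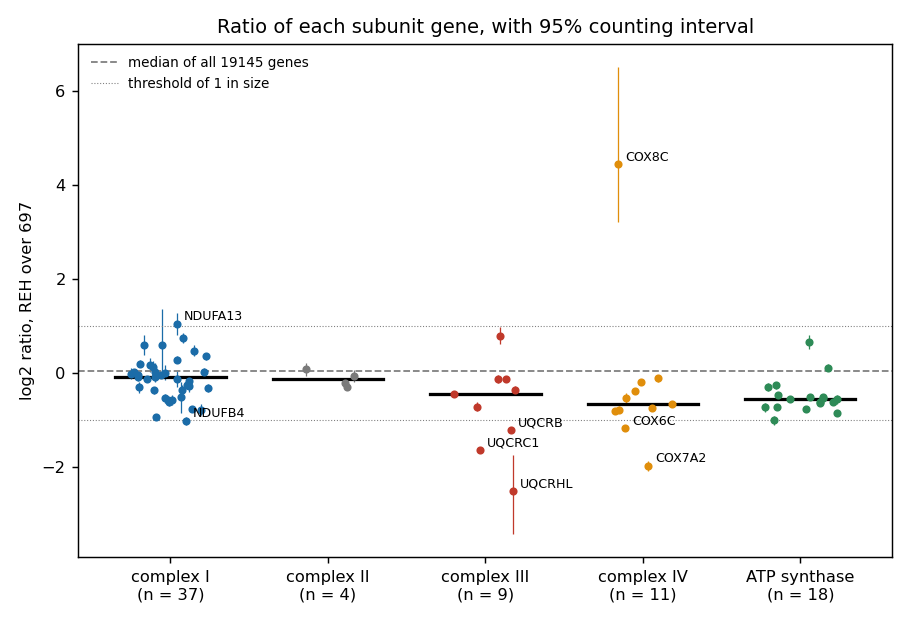
Log2 ratio of REH over 697 for each of the 79 subunit genes, by complex, with vertical lines for 95% counting intervals, thick bars for the median of each complex, a dashed line for the median of all 19145 genes and dotted lines at the 2-fold threshold. The bars descend from -0.08 in complex I to -0.64 in complex IV, and COX8C at 4.45 stands apart from the other complex IV genes.

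Within complex I the genes of the catalytic core had ratios on both sides of 0. The core includes NDUFV1, which binds NADH and flavin, and NDUFV2, NDUFS1, NDUFS3, NDUFS7 and NDUFS8, which carry iron-sulfur clusters or form the ubiquinone site. NDUFS1 had 5869 reads in REH and 6347 in 697, a log2 ratio of -0.56 with an interval of -0.61 to -0.51. NDUFV1 was closer to equal, with 8946 and 7157 reads (-0.12), and NDUFS3 with 4353 and 3155 reads (0.02) and NDUFS8 with 2784 and 2003 reads (0.03) had intervals that held 0. NDUFS7 lay on the other side, with 2185 and 954 reads (0.75, interval 0.64 to 0.86). However, 51.4% of its exon length is shared with genes on the opposite strand. Reads that overlap more than 1 annotated gene are counted for none of them, so reads there can be missing from its count. NDUFV2 had only 145 and 152 reads (-0.51), and 30.9% of its 50-base windows occur elsewhere in the genome, from which reads were not counted if they mapped to several places. It also shares 28.4% of its exon length with another gene on the same strand, so its count can be too low as a measure of its level.

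Accessory genes were placed in complex I by their symbols. The NDUFA genes had a median of 0.10 (14 genes) and the NDUFB genes of -0.30 (10 genes). NDUFA4 and its relative NDUFA4L2 were thus counted among the NDUFA genes and in all complex I values. NDUFA13, also known as GRIM-19 and needed for assembly of the membrane arm, was the only complex I gene past 2-fold in the direction of REH. It had 572 reads in REH and 203 in 697, or 11.4 and 5.49 CPM, a log2 ratio of 1.05 with an interval of 0.82 to 1.29. NDUFA13 lies at chr19:19515736-19529054 on the plus strand, shares 21.0% of its exon length with YJEFN3 and a readthrough transcript, and had a ratio of 1.95 from the reads on its own strand and of 0.72 from those on the opposite strand. NDUFA12 had 1665 and 875 reads (0.48). NDUFB10 had 5316 and 3046 reads (0.36), and NDUFAB1, the mitochondrial acyl carrier protein, had 3548 and 2134 reads (0.29). In the other direction, NDUFB4 was the only complex I gene past 2-fold. It had 2196 reads in REH and 3255 in 697, or 43.7 and 88.1 CPM (-1.01, interval -1.09 to -0.93), at chr3:120596328-120602507. That call sat on the threshold and was lost without TMM scaling (-0.70), with a minimum of 50 reads (-0.99) and from the reads on its own strand (-0.97). NDUFB9 had 3401 and 4771 reads (-0.93), just short of the threshold, and NDUFA4, which is now counted as a complex IV subunit despite its name, had 2603 and 2920 reads (-0.61).

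The 4 genes of complex II were the most even. SDHA, the flavoprotein that oxidizes succinate, had 7760 reads in REH and 6996 in 697 (-0.29), and SDHB, the iron-sulfur subunit, had 3216 and 2716 (-0.20). The membrane anchors SDHC with 1085 and 751 reads (0.09) and SDHD with 1207 and 922 reads (-0.06) had intervals that held 0. SDHA, SDHB and SDHD turned positive without TMM scaling. Of the 50-base windows of SDHC and SDHD 61.1% and 50.3% occur elsewhere in the genome, and the pseudogenes named after SDHA had 2675 reads in REH and 2287 in 697 of their own.

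In complex III, the core protein UQCRC1 was past 2-fold in the direction of 697 and its partner was not. UQCRC1 had 3545 reads in REH and 8041 in 697, or 70.5 and 218 CPM, a log2 ratio of -1.63 with an interval of -1.68 to -1.57. UQCRC2, which forms the core with it, had 14063 and 11169 reads (-0.11). UQCRB, a small subunit near the ubiquinone site, had 5125 and 8736 reads, or 102 and 236 CPM (-1.21, interval -1.26 to -1.16), and dropped to -0.91 without TMM scaling. The Rieske iron-sulfur protein UQCRFS1 had 2404 and 2243 reads (-0.34) and UQCRQ had 1800 and 2162 (-0.71). UQCR11, a small peripheral subunit, was the only complex III gene above 0, with 828 and 348 reads (0.81, interval 0.62 to 0.99). The lowest ratio of all members was that of UQCRHL, an intronless copy of the hinge protein gene UQCRH, with 16 reads in REH and 68 in 697 (-2.50, interval -3.42 to -1.73), while UQCRH itself had 4521 and 4527 reads (-0.45).

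UQCRHL is shown beside UQCRH because reads from the coding sequences of the pair can be separated at few positions only. Their coding sequences of 273 bases share 269 bases (98.5%) and differ at G158A, G167A, G231A and G233A, counted from the first coding base with the UQCRH base first. Coding bases 144 to 233 (GRCh38, GENCODE 44) hold all 4 differences, in capitals.
UQCRH: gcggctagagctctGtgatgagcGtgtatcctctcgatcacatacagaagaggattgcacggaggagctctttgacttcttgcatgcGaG
UQCRHL: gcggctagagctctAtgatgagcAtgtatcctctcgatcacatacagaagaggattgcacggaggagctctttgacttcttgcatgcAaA
UQCRHL is therefore uncertain as a separate measurement, and its count is small in both libraries.

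Complex IV held the highest ratio of all members and, after UQCRHL, the lowest. COX7A2, the widely expressed form of subunit 7A, had 1163 reads in REH and 3348 in 697, or 23.1 and 90.6 CPM, a log2 ratio of -1.97 with an interval of -2.07 to -1.87. The gene lies at chr6:75237675-75250323 on the minus strand, shares no exon with another gene, and kept a ratio between -1.997 and -1.66 under every alternative computed. COX6C, a small membrane subunit, had 4525 and 7493 reads, or 90.02 and 203 CPM (-1.17, interval -1.23 to -1.12), and -0.86 without TMM scaling. COX8C, a rarely expressed form of subunit 8 at chr14:93347182-93348356, was seen almost only in REH, with 133 reads against 4 (2.65 and 0.108 CPM, log2 ratio 4.45, interval 3.22 to 6.51). With 5 in place of 0.5 reads added to each count its ratio was 3.49. The large regulatory subunit COX4I1 had 14450 and 12090 reads (-0.19), COX5A had 4740 and 6060 (-0.80), COX5B had 3899 and 3088 (-0.11), COX6B1 had 4959 and 5696 (-0.64) and COX7C had 5389 and 6576 (-0.73). COX7A2L, a relative of COX7A2 that acts in supercomplex assembly, had 4550 and 4334 reads (-0.37).

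ATP synthase genes lay close together, and 16 of 18 were below 0. All 5 genes of the F1 head lay between -0.77 and -0.60. ATP5F1B, the catalytic beta subunit, had 34921 reads in REH and 40011 in 697, or 695 and 1083 CPM (-0.64), and ATP5F1A, the alpha subunit, had 24718 and 27626 reads (-0.60). The gamma subunit ATP5F1C, the central shaft, had 8075 and 10108 reads (-0.77), ATP5F1D had 2591 and 2884 (-0.60) and ATP5F1E had 4375 and 5273 (-0.71). The genes of the stalks and membrane part had a median of -0.51 over 12 genes. ATP5IF1, the inhibitor that blocks ATP hydrolysis by the enzyme, was one of the 2 ATP synthase genes above 0, with 3366 and 2275 reads (0.12, interval 0.04 to 0.20). The other was ATP5ME, subunit e, with 1100 and 508 reads (0.67, interval 0.52 to 0.82), but 61.3% of its exon length is shared with MYL5 on the opposite strand. No ATP synthase gene passed 2-fold, and ATP5MC1 came closest with 1465 and 2147 reads (-0.995, interval -1.09 to -0.90).

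The c subunit that forms the rotor ring is encoded by ATP5MC1, ATP5MC2 and ATP5MC3, which differ in their import signals and give the same mature peptide. Their sequences are shown because all 3 contribute to a single protein in the ring. The 90 coding bases below (GRCh38, GENCODE 44, positions 289 to 378 in ATP5MC1, 304 to 393 in ATP5MC2 and 307 to 396 in ATP5MC3) lie toward the 3' end, and the 21 positions that vary are in capitals.
ATP5MC1: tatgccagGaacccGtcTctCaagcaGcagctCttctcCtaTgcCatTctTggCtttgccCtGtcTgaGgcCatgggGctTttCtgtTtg
ATP5MC2: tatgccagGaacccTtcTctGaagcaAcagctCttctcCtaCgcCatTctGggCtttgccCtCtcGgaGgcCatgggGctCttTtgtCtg
ATP5MC3: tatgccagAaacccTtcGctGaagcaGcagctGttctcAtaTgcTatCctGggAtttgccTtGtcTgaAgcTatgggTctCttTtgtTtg
The whole coding sequences were 66.7% to 69.5% identical. ATP5MC2 had 12255 reads in REH and 16094 in 697 (-0.84), and ATP5MC3 had 9276 and 9662 (-0.50). Per kb of canonical transcript, ATP5MC2 made up 76.8% of the summed level of the 3 genes in REH and 78.3% in 697, ATP5MC3 14.2% and 11.5%, and ATP5MC1 8.98% and 10.2%. Per kb of the union of all annotated exons, a length chosen as an alternative after seeing the data, the shares were 51.6% and 55.5% for ATP5MC2, 39.2% and 33.5% for ATP5MC3, and 9.20% and 11.05% for ATP5MC1. The order of the 3 genes was the same in both lines with either length.

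Where a subunit has tissue-specific forms, both lines used almost only the widely expressed form. COX4I2 (lung and hypoxia), COX6A2 (heart and muscle) and COX7B2 had 0 reads in both libraries, which allows levels of up to 0.0597 CPM in REH and 0.0812 in 697. The muscle form COX7A1 had 2 reads in each, and COX6B2 had 7 and 6. The exceptions were COX8C, which made up 4.09% of the level per kb of COX8A and COX8C in REH and 0.102% in 697, and NDUFA4L2, a hypoxia-inducible relative of NDUFA4. NDUFA4L2 had 550 reads in REH and 265 in 697 (0.61, interval 0.40 to 0.83), which was 31.3% of the level per kb of NDUFA4 and NDUFA4L2 in REH and 16.4% in 697 by canonical length, and 20.7% and 10.1% by union exon length. Also below the minimum of 10 reads were ATP5MGL with 0 and 1 reads, ATP5MF-PTCD1 with 3 in each and NDUFC2-KCTD14 with 0, the last 2 being readthrough genes.

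Levels of different genes were compared per kb of the canonical transcript. The median level of the members was 57.3 CPM per kb in REH and 72.5 in 697, against 15.3 and 15.8 over the 8815 protein-coding genes. By union exon length the values were 17.1 and 22.2 against 9.31 and 9.55. Complex IV had the highest median (112 and 195), followed by ATP synthase (73.7 and 106), complex I (38.9 and 46.7), complex II (37.6 and 44.5) and complex III (22.8 and 37.2). This order was the same in both libraries, but the ranges of the complexes overlapped widely. Per kb of union exon length, complex IV (54.4 and 67.9) and ATP synthase (26.1 and 31.2) were still highest, while complex III (16.1 and 26.4) came next, then complex II (14.5 and 16.2) and complex I (9.59 and 13.1), so the order of complexes I, II and III depends on the length used. By canonical length ATP5F1B had the highest level in REH (395) and ATP5MC2 in 697 (689), and by union length ATP5F1B was highest in both (310.4 and 484). The levels of the 79 members ranked alike in both lines, with a Spearman rho of 0.923 across genes, against 0.789 across the 8815 genes. Genes are not independent replicates, and no p-value is given.

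**Figure D3:**
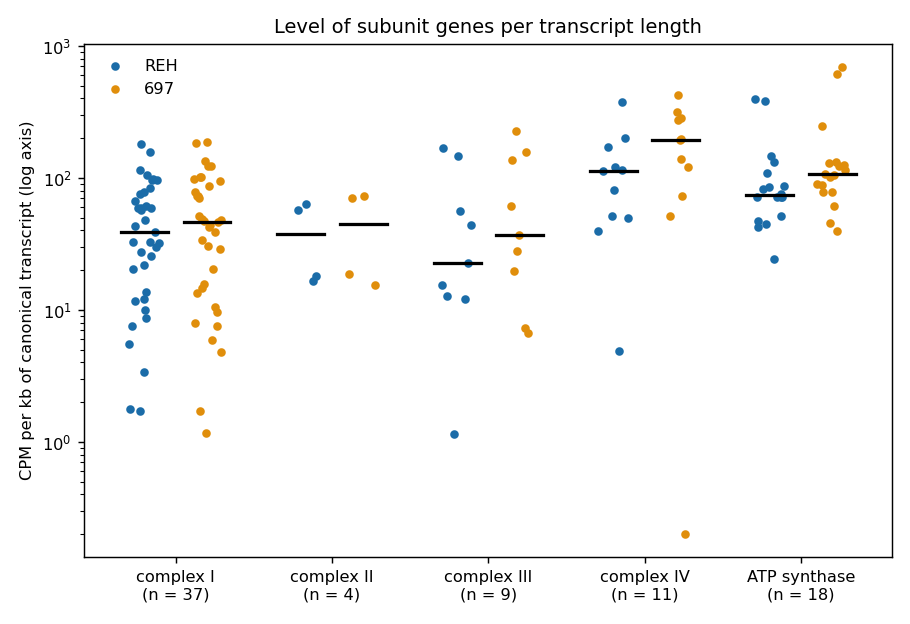
Level of the 79 subunit genes per kb of canonical transcript in REH (blue) and 697 (orange), in TMM-scaled CPM per kb on a log axis, by complex, with bars for medians. Complex IV has the highest medians (112 and 195) and complex III, by this length, the lowest (22.8 and 37.2), and COX8C in 697 lies lowest of all at 0.200.

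Many subunit genes have processed pseudogenes, and reads that fit several places were not counted. GENCODE names 184 pseudogenes after 48 of the 87 members. These 48 had a median log2 ratio of -0.46, and the 31 tested members without a named pseudogene had one of -0.12. Of the members, 41 had no 50-base window elsewhere in the genome, and the 36 of them that were tested had a median of -0.09. Multimapping reads took a larger share of the library in 697 (15.4%) than in REH (10.8%), and their part in the ratios was not tested. Complex I lay above ATP synthase in both classes. Without a named pseudogene, the median was -0.04 over 19 complex I genes and -0.50 over 5 ATP synthase genes, and with one it was -0.21 over 18 and -0.60 over 13. The medians of complexes III and IV moved further, over few genes. With no window elsewhere they were -0.11 (3 genes) and -0.19 (5 genes), beside 0.03 for complex I (21 genes) and -0.49 for ATP synthase (6 genes). Without a named pseudogene, complex III was at -1.17 (4 genes) and complex IV at -0.37 (3 genes).

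Some of the largest ratios lay in chromosomal regions where other genes had ratios of the same sign. For each member the median log2 ratio of the other protein-coding genes within 5 Mb was taken. These neighbours had at least 10 reads in at least 1 library and included no members. UQCRC1 on chromosome 3 had neighbours at -0.82. On chromosome 8, UQCRB had neighbours at -0.71, COX6C at -0.68 and NDUFB9 at -0.72, and the 3 members there had a median of -1.17, with -0.44 over the other genes of the chromosome. On chromosome 16 the neighbours were high, at 0.87 for UQCRC2, 0.82 for COX4I1, 0.90 for NDUFAB1 and 0.71 for NDUFB10, and these members lay at -0.11, -0.19, 0.29 and 0.36, each below its neighbours. The part of chromosomal position in the ratios was not tested. COX7A2 and UQCRHL differed from this pattern, since their neighbours had medians of 0.20 and 0.18. NDUFB4 had neighbours at only -0.16. COX8C and NDUFA13, past 2-fold in the direction of REH, had neighbours at 0.14 and 0.21.

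Across the 79 members, the ratio and that of the neighbours had a Spearman rho of 0.391 (Pearson r 0.304), and over the 72 with at least 1000 reads 0.422 (r 0.484). Members near each other share neighbours, so this is a description only. Most members lay below their neighbours wherever these lay. This held for 66 of 79 members with a median difference of -0.41, for 18 of 18 ATP synthase genes (median difference -0.64), 10 of 11 complex IV genes (-0.58), 8 of 9 complex III genes (-0.55), 27 of 37 complex I genes (-0.22) and 3 of 4 complex II genes. The neighbours were not matched to the members for depth or transcript length. How many other short, abundant genes lay below their neighbours was not computed, so these counts are not particular to the subunits. Leaving out chromosomes 3 and 8, the median ratio over the remaining 73 members was -0.29.

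**Figure D4:**
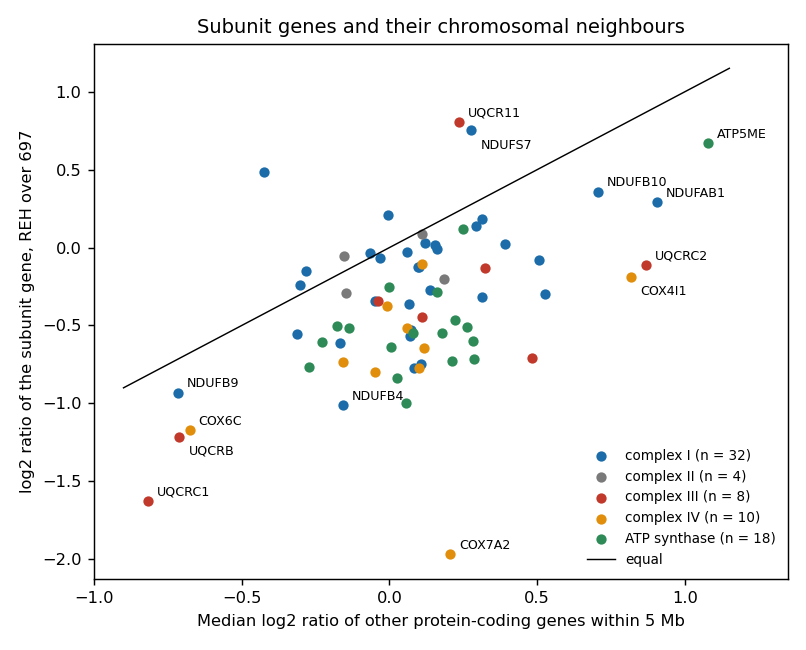
Log2 ratio of the 72 subunit genes with 1000 or more reads in all (y axis) against the median log2 ratio of the other protein-coding genes within 5 Mb (x axis), coloured by complex, with a line of equality. Most points lie below the line, UQCRC1, UQCRB, COX6C and NDUFB9 lie at the lower left, and COX7A2 lies alone at the bottom with neighbours at 0.20.

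Subunit mRNAs are short, and short transcripts as a class had lower ratios. Under 1 kb, the 48 members had a median of -0.29, and 334 other protein-coding genes with at least 1000 reads, cytosolic ribosomal protein genes left out, had one of -0.28. With ribosomal protein genes that median was -0.36 (373 genes), and over all 696 other protein-coding genes tested under 1 kb it was -0.18. Members in all bins had at least 10 reads, a lower minimum than the 1000 reads of the other genes. From 1 to 2 kb the medians of members and of such other genes, without ribosomal protein genes, were -0.20 (15 members) and -0.12. From 2 to 4 kb they were -0.44 (8 members) and -0.04, and from 4 kb -0.26 (8 members) and -0.02. Over all other protein-coding genes tested, with at least 10 reads, the medians in these 3 bins were 0.05, 0.05 and 0.03. The member median under 1 kb thus lay between those of the other genes, depending on which were included. The medians of longer members lay below those of other genes of their length. The part of transcript length in the ratios was not tested.

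Assembly factors had ratios from -2.42 to 4.41. The subunit range of -2.50 to 4.45 was set by UQCRHL and COX8C, both under 1000 reads in all. The 72 members with at least 1000 reads spanned a narrower range, from -1.97 to 0.81. Of 52 assembly factors, 51 were matched and tested, with a median of -0.13, 3 higher in REH (5.88%) and 7 higher in 697 (13.7%), beside 22.4% and 17.4% of all genes. The largest ratio was that of ATPAF1, a chaperone for the beta subunit of the F1 head, with 2938 reads in REH and 101 in 697 (4.41, interval 4.13 to 4.72), while its client ATP5F1B had the -0.64 given above. ATPAF2, the chaperone for the alpha subunit, had 1436 and 514 reads (1.04), and SDHAF1 had 570 and 179 (1.22). NDUFAF3, a complex I assembly factor encoded on chromosome 3, had 703 and 2763 reads (-2.42), and SDHAF3 (-1.72), COX19 (-1.60), SDHAF4 (-1.51), NDUFAF6 (-1.43), NDUFAF2 (-1.21) and COX17 (-1.03) were also higher in 697. Of 10 regulators of mitochondrial gene expression 9 were tested, 8 lay below 0 and 0 passed 2-fold. Of the 8815 protein-coding autosomal genes with 1000 or more reads, 4748 lay below 0. Past 2-fold were 10.2% of these in the direction of REH and 12.6% in that of 697. NRF1 (-0.09) and GABPA (-0.08), which activate many subunit genes, were near equal, PPARGC1B was at 0.89, TFB2M at -0.81 and TFAM at -0.35, and PPARGC1A had 1 read in REH and 0 in 697.

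The mitochondrially encoded subunits differed more than their nuclear partners. All 13 lay below 0, with a median of -1.42 (range -1.89 to -0.58). By 2-fold or more, 10 were higher in 697 (76.9%), beside 17.4% of all genes. Their summed CPM was 3.88 times that of the nuclear members in REH and 6.97 times in 697. For ATP synthase the quotient was 0.672 in REH and 1.64 in 697, and for complex I 5.25 and 10.3. The X-linked subunits NDUFA1 (-0.65), NDUFB11 (-0.16) and COX7B (-0.49), which the autosomal rule leaves out, lay within the range of the members. Cytochrome c (CYCS, -0.44) and cytochrome c1 (CYC1, -0.54) did too. Cytosolic ribosomal protein genes, another group of short abundant mRNAs, had a median of -1.33 over 74 genes.

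**Figure D5:**
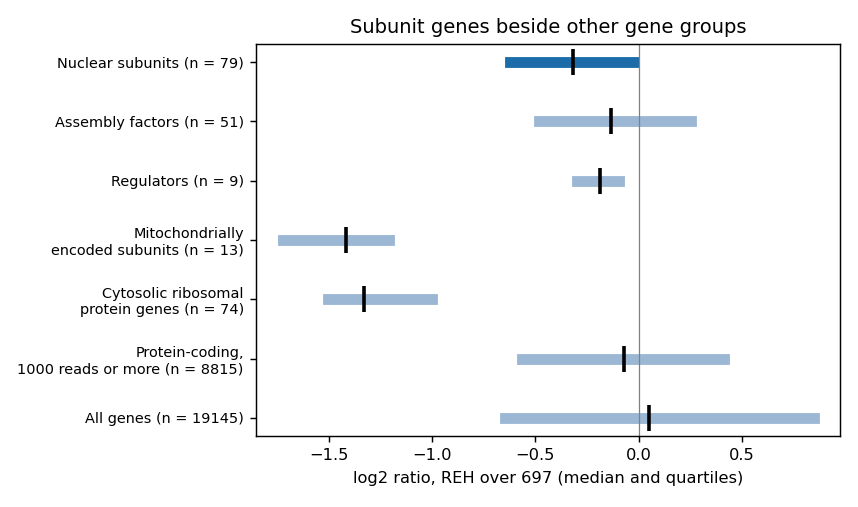
Median (black line) and quartiles (bar) of the log2 ratio of REH over 697 for the nuclear subunit genes and 6 other gene groups, with the number of genes in each. The nuclear subunits have a median of -0.32, between all genes at 0.05 and the mitochondrially encoded subunits at -1.42.

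Promoters were searched for the core motifs of NRF1, GABPA and YY1, known regulators of subunit genes. RefSeq promoter sequences (GRCh38.p14, 300 bases around the start) were matched for 68 of the 87 members. On either strand, the palindromic NRF1 core, the 10 letters in capitals in the ATP5F1C window below, was found in 4 member promoters (5.88%), in 1.24% of all 35116 promoters and in 1.75% of the 15842 promoters of protein-coding genes. ACTTCCGG, the ETS site bound by GABPA, was found in 10 member promoters (14.7%), in 4.14% of all and in 6.19% of those of protein-coding genes. AAGATGGC (YY1) was found in 11 (16.2%), 2.89% and 3.91%. At least 1 of these was found in 24 member promoters (35.3%), in 7.79% of all and in 11.1% of those of protein-coding genes. The windows below are shown because they hold these motifs, in capitals, on the strand of the gene. ATP5PF, a stalk subunit of ATP synthase not described above, had 2902 reads in REH and 2547 in 697 (-0.26).
ATP5F1C, NRF1, chr10:7788145-7788174, plus strand: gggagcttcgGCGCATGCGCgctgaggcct
NDUFB4, NRF1, chr3:120596167-120596196, plus strand: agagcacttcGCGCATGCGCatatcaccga
SDHD, NRF1, chr11:112086753-112086782, plus strand: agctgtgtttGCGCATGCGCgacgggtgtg
ATP5PF, YY1, chr21:25735093-25735122, minus strand: taggcgaagaaAAGATGGCggaggctgtgc
UQCR11, ETS, chr19:1605561-1605590, minus strand, motif in reverse complement: tccaaccctcgCCGGAAGTtactgtaagtg
The 4 members with the NRF1 core, namely ATP5F1C, NDUFB4, SDHD and NDUFA8, had ratios from -1.01 to -0.06 with a median of -0.67, and the 60 tested members without it had a median of -0.27. For the ETS core the medians were -0.37 with and -0.27 without, and for the YY1 core -0.24 and -0.29. A motif match is a description of these letters and does not show binding.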

How the data were processed

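Total RNA of 1 REH and 1 697 culture was sequenced. The deposited values are raw read counts per gene from the STAR counter made by the authors, not normalized. The labels' processing notes name hg19 and the study's methods hg38, and the labels describe ribodepleted stranded libraries and the methods poly(A) libraries. Sense reads made up 50.1% and 50.2% of stranded counts, so the unstranded column was used. The annotation release is not given in the sources used here. Multimapping reads are not in the counts. Neither are reads that overlap more than 1 gene, which were 4.58% of the library in REH and 4.41% in 697. Symbols, positions and transcripts came from GENCODE 44 on GRCh38, which matched 51996 of 57773 gene IDs.

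Totals were scaled with TMM in edgeR 4.0.16 (factors 1.11 and 0.899). The log2 ratio used counts with 0.5 reads added. A minimum of 10 reads in either library was set, and genes were compared at a log2 threshold of 1. The study used DESeq2, which needs replicates, so no p-value is given. Computations were tested on simulated data. DESeq2 1.42.0 size factors, unscaled totals, other TMM gene sets, read minimums, added reads, thresholds and strand columns were alternatives.

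Members and lists were chosen with earlier results of these data known. Genes were named if past 2-fold, extreme in their complex in ratio or level per kb, catalytic, or paired with a paralog, together with ATP5IF1. Some genes that this rule or the marker lists name are not reported here. NDUFA12, NDUFB10, NDUFAB1, UQCRQ, COX7C, ATP5PF and NDUFA8 were named after their values were seen. The comparisons with neighbouring genes, 50-base windows, promoter motifs, union exon lengths and length bins without ribosomal protein genes were added after seeing the data.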

Additional observations from a re-analysis of the deposited data

How the results depend on the processing

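No paired analysis was possible because REH and 697 have a single library apiece, and for the same reason no replicate could be left out. No member past 2-fold changed sign. Without TMM scaling the median log2 ratio was -0.0089 for the members, 0.23 for complex I, 0.18 for complex II, -0.24 for ATP synthase, 0.17 for assembly factors and -1.02 for cytosolic ribosomal protein genes, beside 0.36 for all genes, so that complex I, complex II and the assembly factors changed sign, and 4 members were higher in REH and 3 in 697. The 4 were COX8C, NDUFA13, UQCR11 (1.11) and NDUFS7 (1.06). From the opposite-strand column 1 member was higher in REH, and from the own-strand column 3 were, with UQCR11 (1.08) among them. At a log2 threshold of 2, 1 was higher in REH and 1 in 697. Without members with a named pseudogene the median was -0.12 and 2 were higher in 697. Without readthrough and overlapping members 1 was higher in REH. The cause of these moves was not tested, except that the smaller sets hold fewer genes. Of 423 recomputed ratios of 47 single members, 359 stayed within their counting interval, 64 moved and 13, in 10 members near 0, changed sign, 8 of them without TMM scaling. ATP5MC1 passed the threshold with DESeq2 size factors (-1.02) and from the own-strand column (-1.02). Depth limits UQCRHL, NDUFA7, COX8C and NDUFV2.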

Other observations

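Pseudogenes named after some members had reads of their own that differed between the libraries. Those named after COX6C had 136 reads in REH and 10 in 697, and those named after ATP5MF had 125 and 7. Pseudogenes named after UQCRFS1 had 102 and 77 reads, and those named after NDUFV2 had 76 and 82, set beside 145 and 152 reads of NDUFV2 itself. These are counts of uniquely mapped reads in single libraries, and no difference between them was tested.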
